A study of Schizosaccharomyces pombe with 6 samples.

Results

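The core histone genes of fission yeast, Schizosaccharomyces pombe, and the gene of the variant H2A.Z were followed in polyadenylated RNA of a wild-type strain and of a strain carrying the seb1-G476S allele. The 10 genes were taken by name: hta1 and hta2 (histone H2A), htb1 (H2B), hht1, hht2 and hht3 (H3), hhf1, hhf2 and hhf3 (H4), and pht1 (H2A.Z). They are 10 of the 6986 features in the deposited count table. The data comprised 3 libraries of strain AS785 (h+ rpb1-CTD-WT29::NatMX, here wild type) and 3 of strain BS206 (also h+, with the STF19 allele seb1-G476S and rpb1-CTD-WT29::KanMX, here mutant), all from vegetative cultures in log phase in rich YES medium at 30 °C. Both strains thus carry a drug marker at the rpb1 locus, and the marker differs together with the seb1 allele, so their effects cannot be told apart. Each group is 1 strain. The series' design text calls the libraries of a group biological replicates, and the p-values measure the spread between them. Seb1 binds nascent RNA and helps RNA polymerase II to terminate, and cells need it to live. By the series' title the allele came from a screen for suppressors of interference by transcription of a long non-coding RNA.

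Pairs of H2A and H2B and of H3 and H4 form the octamer around which DNA is wrapped in the nucleosome, and fission yeast has no linker histone H1. Most core histone genes are transcribed mainly in S phase, when new DNA has to be packaged, while the pair hht2 and hhf2 is known as the one transcribed throughout the cell cycle. H2A.Z is placed into nucleosomes outside replication by the SWR1 complex, which exchanges it for H2A. Histone mRNAs of yeasts are polyadenylated and are therefore retained in libraries of this kind. The RNA comes from whole cultures, in which fewer cells in S phase and less histone RNA per cell cannot be told apart.

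Total counts per library ranged from 21013941 to 27910803. A count of 1 corresponded to between 0.0371 and 0.0445 CPM, a count scaled to the library total as adjusted by TMM scaling. Wild-type replicate 3 stood farthest from the others of its group, with a correlation of log2 CPM of 0.991 with wild-type replicate 1. Of the P-cell genes that fit the h+ label, map2 was at 4.94 ± 0.271 CPM in wild-type cells and map3 at 31.8 ± 4.30 CPM (SD, n = 3). The M-cell genes mat1-Mc and mat1-Mi had a count of 0 in every library. These counts of 0 are no check of the label, because the handling of reads that match several places is not given. The P-cell mating-type genes mat1-Pc and mat1-Pi were not matched to a row by name, and the M-cell pheromone receptor gene mam2 was at 15.9 ± 5.85 CPM in the wild type. Summed levels of the matched P-cell genes were 33.8 to 41.8 CPM in the wild-type libraries and 64.3 to 75.5 CPM in the mutant libraries, and those of the M-cell genes 13.5 to 25.0 and 23.2 to 31.3 CPM.

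All core histone genes other than hta2 lie in divergent pairs, in which both genes of a pair are transcribed away from a shared stretch of DNA. The stretches between the annotated transcripts of the H3 and H4 pairs are shown because the results below compare the genes read from them. They were read on the + strand of the RefSeq assembly ASM294v3. In the reference annotation each of the 10 genes has 1 coding exon. Capitals mark a tandem of the histone gene box AACCCT, which appears as its reverse complement AGGGTT where the tandem lies on the other strand.
hht1-hhf1, chromosome I:4699600-4699731: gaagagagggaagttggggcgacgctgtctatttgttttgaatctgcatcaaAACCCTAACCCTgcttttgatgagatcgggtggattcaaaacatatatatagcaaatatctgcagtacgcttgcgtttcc
hht2-hhf2, chromosome II:1364985-1365118: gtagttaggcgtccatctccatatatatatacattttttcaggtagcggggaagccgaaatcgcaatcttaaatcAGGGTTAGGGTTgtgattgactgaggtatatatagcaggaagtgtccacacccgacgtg
hht3-hhf3, chromosome II:3529566-3529766: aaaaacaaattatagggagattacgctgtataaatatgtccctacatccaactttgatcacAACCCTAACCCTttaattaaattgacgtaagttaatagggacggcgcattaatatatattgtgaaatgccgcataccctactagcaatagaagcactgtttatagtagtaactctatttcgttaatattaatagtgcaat

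The tandem also stood in front of hta2, the H2A gene that has no divergent partner. The copies at these pairs and at hta2 are set out with 10 bases on either side, each read in the direction in which the box is AACCCT, to show how far the loci resemble each other around it. The box points towards hht1, hhf2, hhf3 and hta2.
hht1-hhf1 (+ strand): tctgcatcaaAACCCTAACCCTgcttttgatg
hht2-hhf2 (- strand): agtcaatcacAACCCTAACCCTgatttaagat
hht3-hhf3 (+ strand): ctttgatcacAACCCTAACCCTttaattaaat
hta2 (- strand): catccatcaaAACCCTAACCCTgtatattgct

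In windows from 250 bases before to 50 after the annotated start of each coding gene, searched on both strands, the single box AACCCT occurred in 496 of 5113 promoters (9.70%). The tandem occurred in 20 (0.391%), and 9 of these 20 were the 9 core histone genes. The genes of a divergent pair share their tandem, so these 9 genes stand for 5 loci. The H2A.Z gene pht1 had neither the single box nor the tandem in its window. The box ACGCGT, known as the site of the G1/S factor MBF, occurred in 166 promoters (3.25%), and among the 10 genes in those of hta1 and htb1, which share it. The tandem is thus present at hht2-hhf2 as at the other pairs, and these are matches of letters, not measured binding.

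Histone genes were among the more abundant messages. All 10 passed the filter on low counts, with 3045 to 33817 counts in a library. Levels between genes are compared per kilobase of annotated transcript. In the wild type the H3 genes were highest and close to each other, with hht2 at 1346 ± 8.33, hht3 at 1335 ± 76.2 and hht1 at 1330 ± 63.3 CPM per kb (SD, n = 3). These 3 did not differ beyond their spread. They were followed by hhf1 at 1197 ± 67.0 and hta2 at 1180 ± 60.1 CPM per kb, again within each other's spread, and by htb1 at 1041 ± 47.6. The lower core genes were hhf3 at 912 ± 59.8, hta1 at 845 ± 45.0 and hhf2 at 638 ± 18.5 CPM per kb, of which hhf3 and hta1 lay within their spread. The value of hhf3 is raised by its annotated transcript starting at the start codon. The variant gene pht1 stood far below the core genes, at 119 ± 2.05 CPM per kb.

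In the mutant the order was another. The gene hht2, at 1370 ± 55.8 CPM per kb, was the highest of the 10, while hht1 was at 884 ± 33.9 and hht3 at 867 ± 11.8 CPM per kb, below hhf1 at 1046 ± 15.6. The lowest core genes were then hhf3 at 646 ± 22.3 and hta1 at 623 ± 6.94, with hhf2 above both at 770 ± 11.5 CPM per kb.

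Of the 10 genes, 7 were lower in the mutant, 1 was higher and 2 were not called at an adjusted p under 0.05 in edgeR's quasi-likelihood test. Of all tested features, 28.4% were called lower and 26.7% higher. Among protein-coding genes alone these shares were 31.5% and 24.3%. The largest change among the 10 was -35.1%, for hht3. The median log2 fold change of the 10 genes was -0.24, against -0.0078 over all 6046 features tested. Abundant features as a whole leaned the other way: of 427 with a mean of at least 500 CPM, a level chosen after the values were seen, 10.1% were lower and 37.5% higher, with a median of 0.11. For 9 of the 10 genes the groups lay apart, as they did for 63.9% of all tested features.

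**Figure D1:**
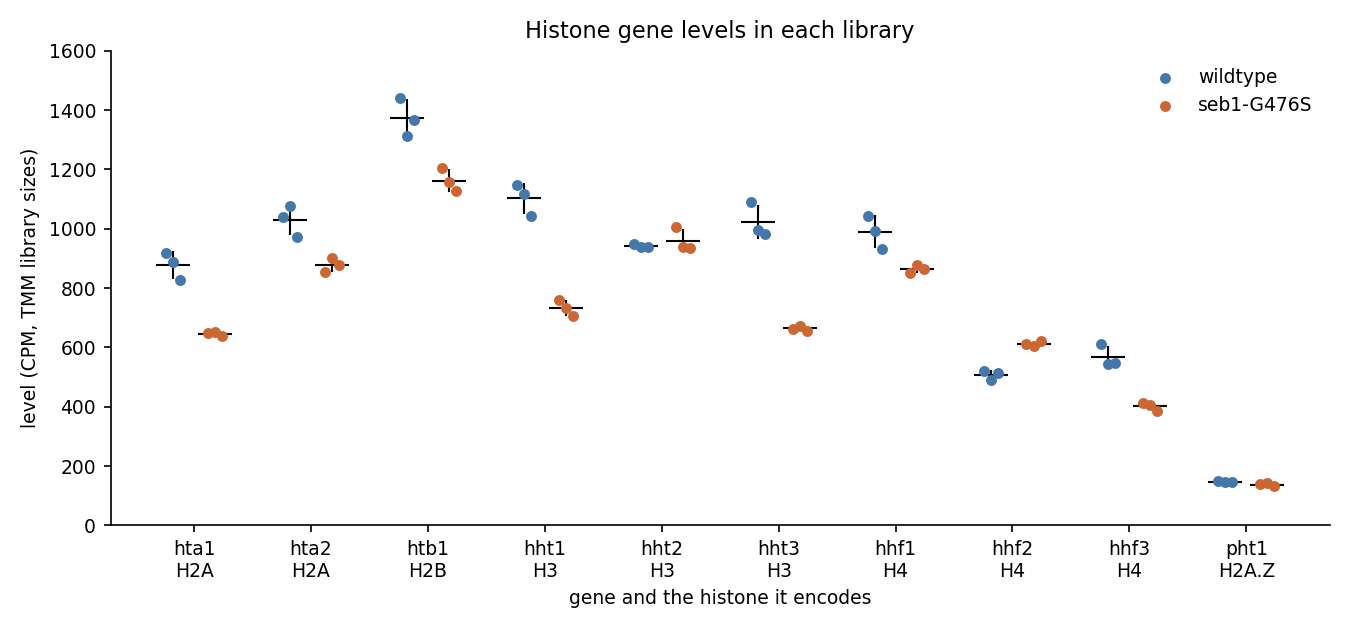
Level of each histone gene in CPM in the 3 wild-type libraries (blue) and the 3 seb1-G476S libraries (orange); black bars are the mean with its SD. The mutant points lie below the wild-type points for 8 genes, above them for hhf2, and overlap them for hht2.

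The H3 genes hht1 and hht3 fell most. The level of hht3 (SPBC1105.11c, chromosome II) was 1089, 996 and 982 CPM in wild-type replicates 1, 2 and 3 and 662, 674 and 656 CPM in the mutant replicates. All mutant libraries lay far below all wild-type libraries, a log2 fold change of -0.62 (SE 0.0572, edgeR adjusted p = 3.88e-05). The level of hht1 (SPAC1834.04, chromosome I) was 1146, 1117 and 1045 CPM in wild-type cells and 761, 733 and 705 CPM in the mutant, again with no overlap. Its log2 fold change was -0.59 (SE 0.0583, edgeR adjusted p = 5.70e-05).

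The remaining H3 gene, hht2 (SPBC8D2.04, chromosome II), encodes the same protein and did not pass the test. It was at 949, 940 and 939 CPM in wild-type cells and at 1004, 939 and 934 CPM in the mutant. The groups overlap, with mutant replicate 1 above all others. The log2 fold change was 0.03, with a 95% interval from -0.09 to 0.14 (edgeR adjusted p = 0.702), while the interval of hht1 ran from -0.72 to -0.46 and that of hht3 from -0.75 to -0.50. With library totals alone as scaling the value of hht2 was -0.094, and without mutant replicate 1 it was -0.0094, neither of them called.

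The H4 genes went in both directions. The gene hhf3 (SPBC1105.12, chromosome II), the partner of hht3, was at 610, 543 and 548 CPM in wild-type cells and 414, 405 and 387 CPM in the mutant. This was a fall without overlap, with a log2 fold change of -0.50 (SE 0.0615, edgeR adjusted p = 0.000193). The gene hhf2 (SPBC8D2.03c, chromosome II), the partner of hht2, was at 519, 491 and 514 CPM in wild-type cells and 611, 604 and 622 CPM in the mutant. It was the one histone gene of the 10 to rise, by 20.6% without overlap, with a log2 fold change of 0.27 (SE 0.0503, edgeR adjusted p = 0.00172), and it was called higher under every alternative listed in the closing section, library totals alone included, where its log2 fold change was 0.15. The partner of hht1, hhf1 (SPAC1834.03c, chromosome I), was at 1044, 993 and 933 CPM in wild-type cells and 852, 877 and 866 CPM in the mutant. Its groups did not overlap, though their nearest libraries lay close to each other, and the fall of 0.19 on the log2 scale had the highest adjusted p among the called genes (SE 0.0572, edgeR adjusted p = 0.0162). The call of hhf1 was lost without wild-type replicate 2 (edgeR adjusted p = 0.0567), without mutant replicate 1 (0.0541) and without mutant replicate 2 (0.058).

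Among the genes of the other dimer, hta1 (SPCC622.08c, chromosome III) changed most. Its H2A message was at 917, 889 and 826 CPM in wild-type cells and 649, 652 and 638 CPM in the mutant, a log2 fold change of -0.44 (SE 0.0559, edgeR adjusted p = 0.000227). The other H2A gene, hta2 (SPAC19G12.06c, chromosome I), was at 1041, 1076 and 973 CPM in wild-type cells and 854, 900 and 879 CPM in the mutant. It fell by 0.23 on the log2 scale (SE 0.0571, edgeR adjusted p = 0.00722), with the highest mutant library below the lowest wild-type library. The only H2B gene, htb1 (SPCC622.09, chromosome III), was at 1439, 1314 and 1367 CPM in wild-type cells and 1203, 1158 and 1126 CPM in the mutant. It fell by 0.24 (SE 0.0576, edgeR adjusted p = 0.00617), also without overlap.

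The H2A.Z gene pht1 (SPBC11B10.10c, chromosome II) was not called. It was at 150, 145 and 147 CPM in wild-type cells and 138, 143 and 131 CPM in the mutant, groups that lie apart by a small margin. The log2 fold change was -0.10, with a 95% interval from -0.22 to 0.02 (edgeR adjusted p = 0.15). It was called with library totals alone, at -0.22 (edgeR adjusted p = 0.00634), a scaling that moved the median of all features to -0.13.

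In the authors' deposited table, made with DESeq2, the same directions stood for all 10 genes, with log2 fold changes of -0.59 for hht3, -0.55 for hht1, -0.46 for hhf3, -0.40 for hta1 and 0.31 for hhf2 at adjusted p under 0.05. In the authors' deposited table the remaining falls were not past that threshold, with adjusted p of 0.138 for hta2, 0.0961 for htb1 and 0.187 for hhf1.

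**Figure D2:**
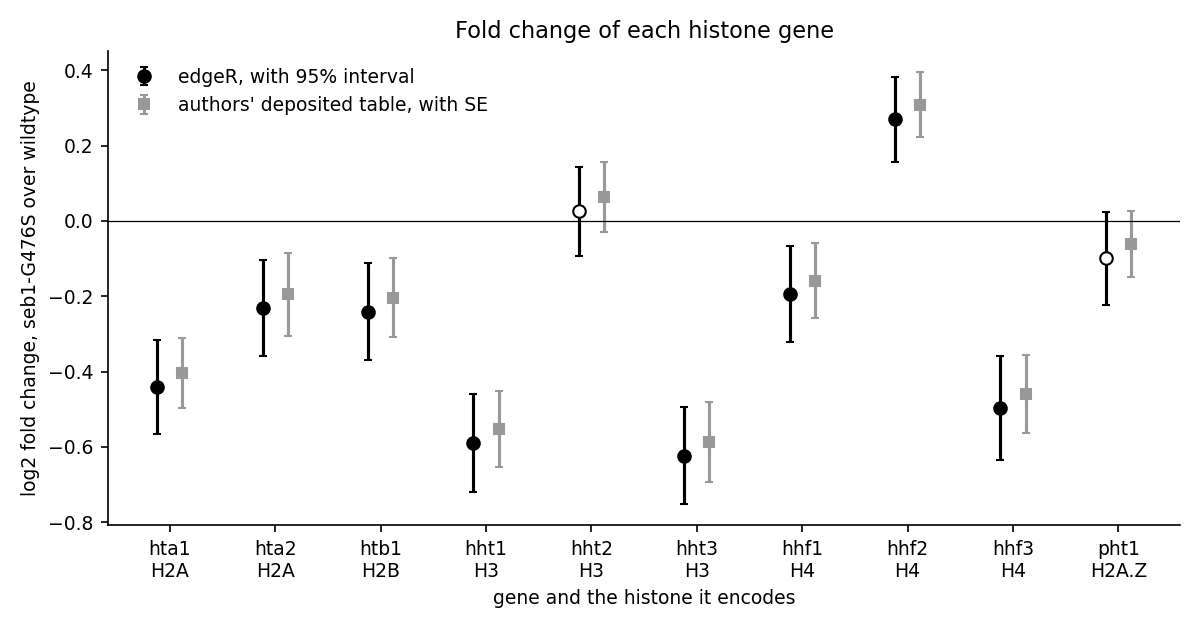
Log2 fold change of mutant over wild type for each histone gene, from edgeR with 95% intervals (black; open where not called) and from the authors' deposited table with standard errors (grey squares). Both place hhf2 above 0, hht2 and pht1 nearest to 0, and hht1 and hht3 lowest.

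Because the copies of a histone encode nearly the same protein, their shares show which locus the counts came from. A share within a library does not depend on the scaling between libraries, but it is not divided by transcript length. The coding sequences of hht1, hht2 and hht3 translate to identical proteins of 136 residues, and those of hhf1, hhf2 and hhf3 to identical proteins of 103 residues. The H2A proteins of hta1 and hta2 differ at 3 aligned positions, gaps included, while H2A.Z is 53.6% identical to the product of hta2. The hht2 share of all H3 counts was 29.8%, 30.8% and 31.7% in the wild type and 41.4%, 40.0% and 40.7% in the mutant. It was the smallest of the H3 shares in every wild-type library and the largest in every mutant library. The annotated transcript of hht2 is the shortest of the H3 genes, at 700 bases against 829 for hht1 and 766 for hht3. Per kilobase hht2 was not below the other H3 genes in the wild type, as given above.

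The shares of the other H3 genes were smaller in the mutant, hht1 going from 35.9% ± 0.687 to 31.1% ± 0.344 and hht3 from 33.3% ± 0.808 to 28.2% ± 0.795 (SD, n = 3). Among the H4 counts hhf2 went from 24.6% ± 0.995 to 32.6% ± 0.591, hhf3 from 27.5% ± 0.644 to 21.4% ± 0.714 and hhf1 from 47.9% ± 1.11 to 46.0% ± 0.576. Of the H2A counts hta1 held 46.0% ± 0.813 in the wild type and 42.4% ± 0.656 in the mutant. For each of these copies the mutant libraries lay outside the range of the wild-type libraries.

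**Figure D3:**
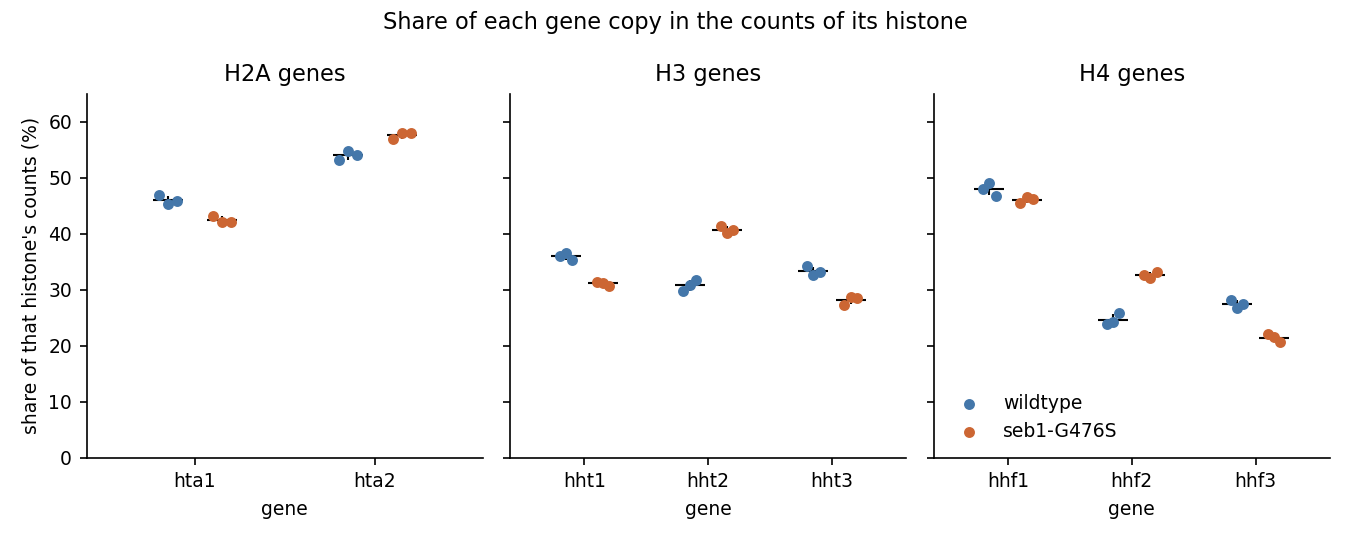
Share of each gene copy in the summed counts of its histone, in percent, per library (blue wild type, orange seb1-G476S; black bars are the mean with its SD). hht2 and hhf2 take larger shares in all 3 mutant libraries, and hht1, hht3, hhf3 and hta1 smaller ones.

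Log2 ratios between copies were compared with an exact two-sided permutation test over the 6 libraries, for 11 ratios in all, where 3 libraries against 3 cannot give a p below 0.10. Between hht2 and hht3 the ratio was -0.12 ± 0.0722 in the wild type and 0.53 ± 0.0632 in the mutant, a difference of 0.65. Between hhf2 and hhf3 it went from -0.16 ± 0.0707 to 0.61 ± 0.0679, a difference of 0.77, the largest of the 11. Between hht1 and hht3 it was 0.11 ± 0.0494 in the wild type and 0.14 ± 0.0517 in the mutant, so the ratio of these H3 genes, which lie on different chromosomes, differed by less than its spread (exact permutation p = 0.50). For the other 10 ratios the groups did not overlap, with the smallest p that the test can give (exact permutation p = 0.10, Benjamini-Hochberg adjusted p = 0.11).

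Genes read from 1 shared stretch did not move by equal amounts. In each H3 and H4 pair the H3 gene had the lower log2 fold change: the log2 ratio of hht1 to hhf1 went from 0.16 ± 0.0186 to -0.24 ± 0.0694, that of hht2 to hhf2 from 0.89 ± 0.0379 to 0.65 ± 0.0652, and that of hht3 to hhf3 from 0.85 ± 0.0213 to 0.72 ± 0.0424. The pair hht1 and hhf1 showed the largest of these differences, -0.40, and its order turned, hht1 being above hhf1 in every wild-type library and below it in every mutant library. In the H2A and H2B pair the ratio of hta1 to htb1 went from -0.65 ± 0.0815 to -0.85 ± 0.0391. These differences passed no threshold, since the test could not go below p = 0.10 (exact permutation).

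Summed over copies, H3 message was at 3068 ± 111 CPM in wild-type cells and 2356 ± 66.8 CPM in the mutant, a change of -23.2%. H4 message went from 2065 ± 94.5 to 1879 ± 6.67 CPM, a change of -8.99%, the higher hhf2 being summed with the lower hhf1 and hhf3. H2A message went from 1907 ± 93.9 to 1524 ± 25.0 CPM (-20.1%) and H2B message from 1373 ± 62.8 to 1162 ± 38.9 CPM (-15.4%). The log2 ratio of all H3 to all H4 counts was 0.57 ± 0.0196 in the wild type and 0.33 ± 0.0409 in the mutant, and that of all H2A to H2B counts was 0.47 ± 0.0957 and 0.39 ± 0.0611. The libraries of the groups did not overlap in the first ratio and overlapped in the second. The 9 core genes together held 0.876% ± 0.00642 of all counts in the wild type and 0.664% ± 0.00768 in the mutant, before any scaling.

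Near-identical copies can exchange reads. The coding sequences of the H3 copies were 88.3% to 92.7% identical and those of the H4 copies 91.3% to 93.3%, and the longest run shared by a pair of copies was 55 bases, between hhf2 and hhf3. Of all 50-base windows of a transcript, 0.803% in hhf2, 1.05% in hhf3 and 0% in the other 8 also occurred in another of the 10. The sources used here give neither the read length nor the handling of reads with several matches.

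Genes that supply, place and mark histones were followed as lists. Of 20 tested histone chaperones and regulators of histone transcription, 9 were lower and 2 higher, with a median log2 fold change of -0.28. Over all features 28.4% were lower and 26.7% higher. Among coding genes at a mean of 5 to 200 CPM, the range of these genes, 37.5% were lower and 19.9% higher. That range was chosen after the values were seen. The 3 subunits of CAF-1, which assembles H3 and H4 onto new DNA, fell: pcf1 by 0.94, pcf3 by 0.82 and pcf2 by 0.59 on the log2 scale (edgeR adjusted p = 0.00133, 0.000186 and 0.00342). The gene ams2, which encodes a GATA-type factor needed for S-phase histone transcription, was at 103 ± 6.19 CPM in wild-type cells and 65.5 ± 1.43 CPM in the mutant (log2 fold change -0.66, edgeR adjusted p = 4.92e-05). The gene teb1, whose product binds AACCCT-type repeats, rose from 23.1 ± 0.421 to 36.6 ± 1.79 CPM (log2 fold change 0.66, edgeR adjusted p = 0.000317). The gene nap2, of the NAP1 chaperone family, fell by 0.59 (edgeR adjusted p = 0.00749). Wild-type replicate 3 was the highest library for nap2, at 132 CPM against 83.5 and 95.2, and without it the log2 fold change of nap2 was -0.38 and the median of the list -0.18.

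The SWR1 complex, which exchanges H2A for H2A.Z, had 8 of 13 tested members lower and 1 higher, with a median of -0.63. They included its ATPase gene swr1, at 38.6 ± 9.96 CPM in wild-type cells and 23.4 ± 2.93 CPM in the mutant (log2 fold change -0.72, edgeR adjusted p = 0.00632). They also included vps71 (-1.01), rvb2 (-0.79), swc5 (-0.73), swc3 (-0.72) and yaf9 (-0.63). Wild-type replicate 3 held the highest level of swr1, above the 31.7 and 34.2 CPM of the other wild-type libraries. Without it the count of lower members was again 8, the median was -0.48, and the log2 fold changes were -0.49 for swr1, -0.72 for vps71 and -0.48 for swc5. The call of swc5 was lost without mutant replicate 1 (edgeR adjusted p = 0.091) and without mutant replicate 3 (0.0531). Its substrate gene pht1 was not called, as given above. Coding genes at a mean of 5 to 200 CPM, a range chosen after the values were seen, were lower in 37.5% and higher in 19.9%.

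Of 22 histone-modifying enzymes tested, 9 were lower and 4 higher, with a median of -0.18. These counts lie near the shares of 37.5% lower and 19.9% higher among coding genes at 5 to 200 CPM. The H3 acetyltransferase gene rtt109 fell by 1.29 on the log2 scale (edgeR adjusted p = 0.000834), and the H2B ubiquitin ligase genes brl2 and brl1 by 1.05 and 0.70. The H4 acetyltransferase gene hat1 fell by 0.58. In the other direction the H3 acetyltransferase gene mst2 rose from 82.3 ± 28.3 to 166 ± 3.72 CPM (log2 fold change 1.02, edgeR adjusted p = 0.00155), and the H4 methyltransferase gene set9 rose by 0.57. The gene cnp1, which encodes the centromeric H3 variant, rose from 16.3 ± 1.55 to 24.9 ± 1.09 CPM (log2 fold change 0.61, edgeR adjusted p = 0.00161), while hht1 and hht3 fell.

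Genes of the cell cycle went in both directions. Of 17 G1/S and S-phase genes, 12 were lower and 4 higher, against 31.5% and 24.3% of all coding genes, with a median of -0.40, and their summed level was 2504 to 2611 CPM in the wild-type libraries and 2241 to 2476 CPM in the mutant libraries. The replication licensing gene cdt1 fell by 1.02 on the log2 scale, and tos4 and yox1, genes of the G1/S programme, by 0.75 and 1.18. The replication checkpoint gene mrc1 fell from 29.8 ± 9.15 to 13.0 ± 1.27 CPM. The genes mik1, a kinase that restrains mitosis, and ssb1, a single-strand DNA-binding protein, fell by 0.69 and 0.71. The 4 called higher were the MBF activator gene rep2 (0.39), the PCNA gene pcn1 (0.38) and the ribonucleotide reductase genes spd1 (inhibitor, 0.28) and suc22 (small subunit, 0.27). Of 16 mitosis and cell separation genes tested, 7 were lower and 2 higher, against 31.5% and 24.3% of all coding genes. Several of the lower genes, among them cfh4, adg1 and adg3, were above 200 CPM in both groups. The median of the list was -0.20, or -0.068 without wild-type replicate 3. Its sum was 4315 to 4432 CPM in wild-type cells and 3960 to 4094 CPM in the mutant. In this list the separation genes cfh4 and agn1 fell by 0.51 each, adg1 by 0.42 and adg3 by 0.35, and the mitotic inducer gene cdc25 rose by 0.28. The sums of both lists lay lower in every mutant library. In the G1/S list the most abundant gene, cdc22 (ribonucleotide reductase large subunit), went from 844 ± 17.7 to 649 ± 38.4 CPM. Beside it tos4 fell from 208 to 123 CPM, while pcn1 rose from 289 to 376 and suc22 from 358 to 431 CPM. The lower G1/S sum thus owes much to cdc22. The part of both lists in the histone values was not tested.

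**Figure D4:**
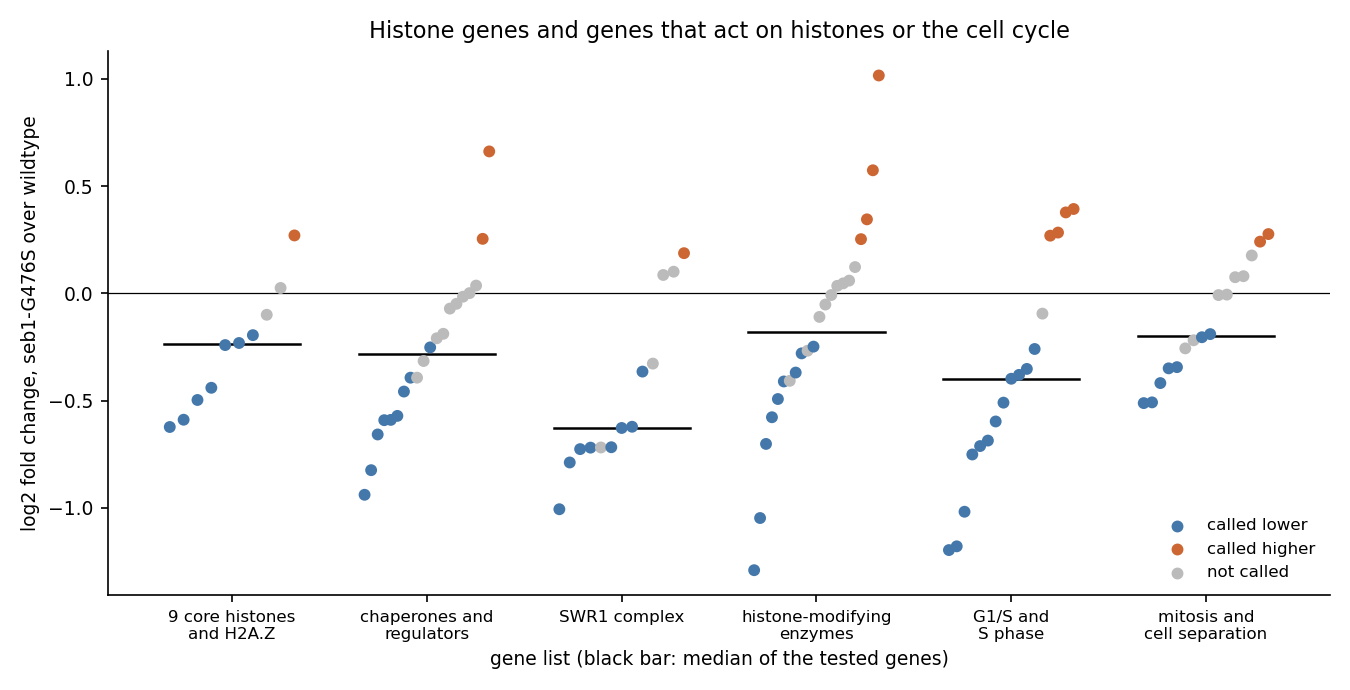
Log2 fold change of mutant over wild type for each tested gene of the histone set and of 5 lists, coloured by edgeR call (blue lower, orange higher, grey not called), with a black bar at each median. The medians of the SWR1 list (-0.63) and the G1/S list (-0.40) lie lowest, and every set holds at least 1 gene called higher.

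Of 12 neighbouring features in the count table, 4 rose, 6 were not called and 2 were not tested. Over all tested features 26.7% were called higher and 28.4% lower. On 10 of the 20 sides of the histone genes the nearest feature of the reference was not in the table, and the nearest one that was in it was taken. The cyclin-dependent kinase gene cdc2, whose 3′ end faces that of pht1, was at 117, 118 and 111 CPM in wild-type cells and 196, 199 and 192 CPM in the mutant, a log2 fold change of 0.76 (SE 0.053, edgeR adjusted p = 6.97e-06), while pht1 itself was not called. The gene rsd1, upstream of hta2 on the same strand, rose from 51.6 ± 3.92 to 89.3 ± 3.04 CPM (log2 fold change 0.79, edgeR adjusted p = 3.60e-05), while hta2 fell.

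The aromatic amino acid synthesis gene aro1, downstream of hhf1, rose from 396 ± 21.3 to 494 ± 25.0 CPM (log2 fold change 0.32, edgeR adjusted p = 0.00205). The exocyst gene sec5, whose annotated transcript overlaps the 3′ end of htb1 on the opposite strand, rose by 0.27 (edgeR adjusted p = 0.00712), a call lost with library totals alone (0.15, edgeR adjusted p = 0.119). The sources used here do not state the strand option of the counting. In the reference annotation the antisense features span all of hta1 and hhf3 on the opposite strand. In wild-type replicate 1 hta1 had 21376 counts against 21 for its antisense, and hhf3 had 14217 against 4. If the counting used the same extents, reads of opposite strands were thus told apart at these genes. For sec5 and htb1 this was not examined. Antisense features were scarce. The antisense of hta1 had 21 to 42 counts in a library and was not called (log2 fold change -0.39, edgeR adjusted p = 0.261). The antisense of hhf3 had 4, 2 and 5 counts in the wild type and 16, 21 and 9 in the mutant, below the filter, with a log2 fold change of 1.98 without the filter (edgeR adjusted p = 0.00633). The call of the antisense of hhf3 thus rests on few counts.

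**Figure D5:**
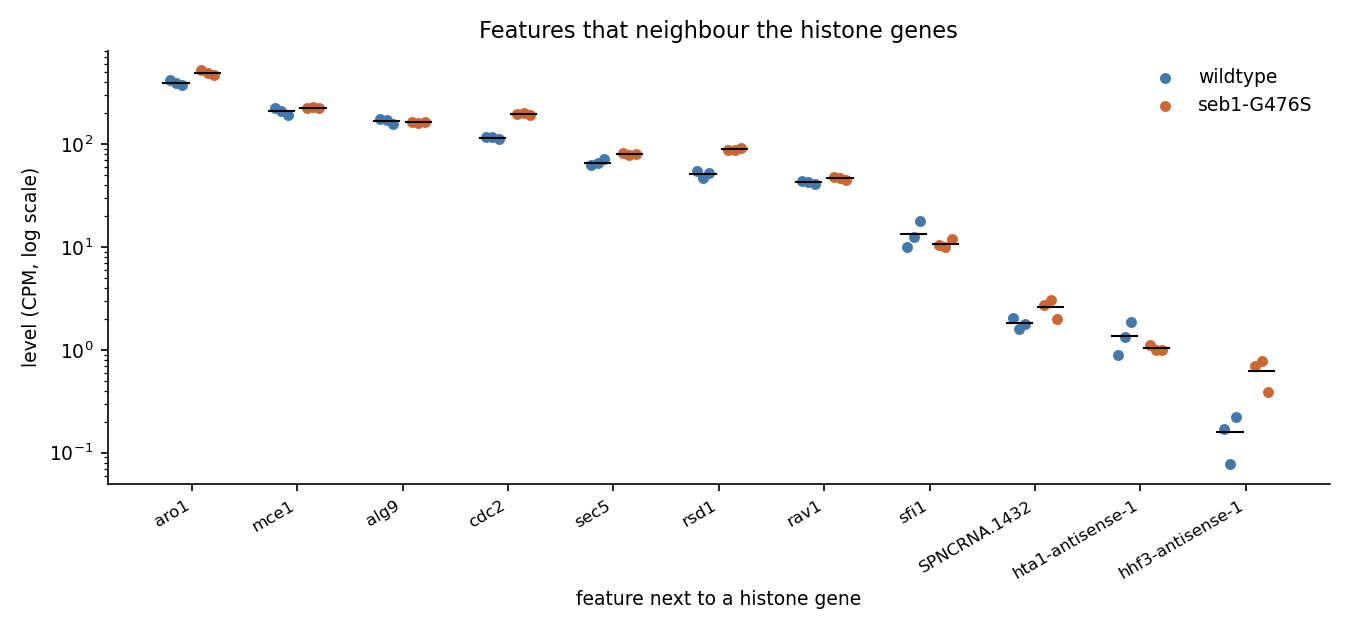
Levels in CPM on a log scale of the features next to the histone genes, per library (blue wild type, orange seb1-G476S; black bars are means; the tRNA gene at 0 or 1 counts is left out). cdc2, rsd1, aro1 and sec5 lie higher in all 3 mutant libraries, and the antisense features lie below the coding genes.

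The features with the profile closest to the mean profile of the 9 core histone genes were sought over the 6 libraries. They were sought among 5010 with a mean of at least 5 CPM, by the root mean square difference of centred log2 CPM. The mean joins genes that differ, from hht3 at -0.62 to hhf2 at 0.27 in log2 fold change. The closest were tom5 (0.0139), his2 (0.0224), hsp3101 (0.0241), dpm1 (0.0245) and pcy1 (0.0284), none of them a histone or replication gene by its description. For pht1 they were tum1 (0.0232), xks1 (0.0298), bos1 (0.0299), sro7 (0.0311) and SPBC83.05 (0.0319). With 6 libraries in 2 groups this measure mostly reflects the difference between the groups.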

How the data were processed

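Polyadenylated RNA of 3 wild-type and 3 mutant cultures had been sequenced from stranded, paired-end libraries, per the labels. The authors deposited raw counts per feature. Their second deposited table holds, per the file headers, p-values, log2 fold changes and their standard errors, a score that is the test statistic, and group averages, a signal of counts divided by size factors. Build ASM294v2, HTSeq 0.10.0, HISAT2 2.1.0, DESeq2 and SAMtools are listed in the submitters' processing notes. Annotation release, strand option and read length are not given in the sources used here.

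The main test was edgeR 4.0.16 in R 4.3.3, quasi-likelihood, two-sided, with TMM scaling, on 6046 features kept by filterByExpr at a minimum count of 10, with 4 residual degrees of freedom. Benjamini-Hochberg adjustment ran over all features kept, and a call is an adjusted p under 0.05. CPM use TMM library sizes. The procedure was tested on simulated data. Alternatives were library totals, RLE scaling, no filter, a replicate block, each library left out, and DESeq2 1.42.0. Every pair of libraries differed beyond sampling noise (chi-square per degree of freedom at least 3.81).

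Names came from the deposited comparison. Lengths, neighbours and sequences came from RefSeq ASM294v3, to which 6833 features matched by identifier. The deposited tables hold no coordinates, and the assembly differs in name from the one used for alignment. The genes named are the 10 histone genes, their antisense and nearest features, from each list the called genes with the largest changes, 6 at most, and the 5 features closest in profile. Of the G1/S list the 4 genes called higher and the most abundant gene, cdc22, are named as well. The histone genes and the lists were chosen with earlier results of these data known. The other genes with a tandem box were chosen after the values were seen. One gene of the cell separation list and the sequence of one locus are not reported here.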

Additional observations from a re-analysis of the deposited data

How the results depend on the processing

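Under all 11 alternatives hhf2 was the 1 histone gene called higher, and 6 to 8 were called lower. Leaving out 1 library gave 6 to 7 called lower and 2522 to 3512 calls over all features, against 3328. Library totals moved the median of all features from -0.0078 to -0.13 and the higher calls from 48.5% to 33.4% of all calls, and added pht1 to the lower calls. Under library totals hht2 turned to -0.094, mce1 to -0.0080, eft201 to -0.072, hsp90 to -0.040 and tif51 to -0.035, none of them called. The neighbour sec5 lost its call there (0.15, adjusted p = 0.119) and alg9 gained one (-0.16, 0.0223), while hta2 was -0.35, hhf1 -0.31 and hhf2 0.15, all called. With 1 library left out hht2 ran from -0.0094 (without mutant replicate 1) to 0.041, eft201 from -0.0013 (without wild-type replicate 3) to 0.082 and hsp90 from -0.013 (without wild-type replicate 3) to 0.16 (without wild-type replicate 1, called at adjusted p = 0.0446). Calls were also gained by mce1 and sfi1 without wild-type replicate 1 and by SPNCRNA.1432 without wild-type replicate 1 or mutant replicate 3. The cause was not tested. Among the lists, the SWR1 count of higher genes ran from 0 to 2, that of the mitosis list from 1 to 4 and that of the M-cell genes from 0 to 2. The log2 ratios kept their direction in all 88 recalculations.

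Deviations from the group means correlated at 0.357, 0.0585 and 0.263 between libraries with the same number. Between libraries with different numbers they correlated at -0.301 to 0.0658. The labels do not state that the numbers pair libraries, so the main test did not pair them. Whether libraries with the same number share a batch was not tested. With the replicate as a block 7 histone genes were lower and 1 higher, as without it, and calls over all features were 3906. DESeq2 called 3225. With 3 libraries a group, no ratio could reach p under 0.10 in the exact permutation test.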

Other observations

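The tandem box also occurred in the promoter windows of 11 other coding genes, of which 10 were tested: 6 were higher and 1 lower, against 26.7% and 28.4% of all features and 37.5% and 10.1% of those with at least 500 CPM. The difference from the histone genes was not tested. The Hsp70 gene ssa1 rose from 85.8 ± 16.5 to 217 ± 1.53 CPM (SD, n = 3; log2 fold change 1.34), and the squalene monooxygenase gene erg1 from 394 ± 61.3 to 667 ± 20.0 CPM (0.76). The TATA-binding protein gene tbp1 rose by 0.45, the Hsp70 gene ssa2 by 0.31 and the Ran GTPase gene spi1 by 0.24 on the log2 scale. The bromodomain gene bdf2 rose by 0.18, not called under library totals (edgeR adjusted p = 0.483), nor without wild-type replicate 1 (0.0617) or 2 (0.104) or mutant replicate 2 (0.12) or 3 (0.0882). The spindle pole body gene ppc89 was the 1 that fell, by 0.56. The genes eft201, hsp90 and tif51 were not called, at 0.05, 0.07 and 0.08, though hsp90 was called higher without wild-type replicate 1 (0.16, edgeR adjusted p = 0.0446).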
